A study of Mus musculus with 2 samples.

Results

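Umod, Egf, Slc12a1, Kcnj1, Bsnd, Cldn10, Cldn16 and Cldn19 encode secreted products, transporters, channels and tight junction proteins of the thick ascending limb of the loop of Henle. These 8 genes were taken by symbol from the 31053 genes counted, and each symbol matched 1 gene. Single-cell RNA was measured in mouse kidney cortex at 16 weeks of age. One library came from a PT I-PpoI mouse kidney, in which the endonuclease I-PpoI, which cuts DNA, was expressed in proximal tubule (PT) epithelium per the series title. The other library came from a wild-type kidney. The promoter that drove the transgene and the number of animals behind each library were not given in the sources used here, and no other allele or agent is named for either group.

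The thick ascending limb reabsorbs salt without water. Slc12a1, the sodium-potassium-chloride cotransporter NKCC2, brings salt in from the urine, Kcnj1 (the channel ROMK) returns potassium to the urine, and Bsnd encodes barttin, a subunit needed for chloride to leave toward the blood. Claudin-10 forms a sodium pore between cells and claudin-16 with claudin-19 a pore for calcium and magnesium. Uromodulin, made from Umod, is the most abundant protein of normal urine, and the Egf precursor is a membrane protein of the limb and distal convoluted tubule that releases epidermal growth factor.

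All levels are in CPM, the unique molecular identifiers (UMIs) of a gene per 1000000 UMIs of the named cells of 1 library. Where a value is given for each library, the PT I-PpoI value comes first and the wild-type value second. The counts are from transcript 3' ends and are not scaled by transcript length, so levels are compared within a gene only. With 1 library per group no replicate check and no test between groups was possible, and every 95% interval covers counting error only. A ratio is the log2 of the PT I-PpoI level divided by the wild-type level, and 2-fold was the size past which a gene was counted.

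The libraries held 93257620 and 107977310 UMIs, and 5121 and 11976 cells were kept, with medians of 11065 and 2687 UMIs per cell. They shared 22 cell barcodes. Cells were clustered with the 8 genes left out and named from markers that hold none of them. Thick ascending limb-like cells numbered 1428 (27.9% of kept cells) and 949 (7.92%), while PT-like cells numbered 168 and 5941. Limb-like cells differed in depth, with medians of 12502 and 2566 UMIs, but not in median mitochondrial share, at 31.5% in both. Free RNA, estimated from genes of other cell types, made up 4.76% and 10.4% of their UMIs, and summed PT markers stood at 68.7 and 1904 CPM in them. Limb-like cells fell into clusters 1, 2 and 3. Cluster 1 held 1015 PT I-PpoI cells and 363 wild-type cells, cluster 2 held 333 and 94, and the shallow cluster 3 (medians of 755 and 1097 UMIs) held 80 and 492, so that most wild-type limb-like cells were of a different cluster from most PT I-PpoI ones.

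The RefSeq promoter sequences of 2 genes are shown because Umod, with 1 window in the RefSeq table, peaked in the limb, whereas Cldn10, with 2 windows, was read in the limb and in the PT. The genome is GRCm38.p6, the sequences are the 250 bases before each start, read 5' to 3' on the strand of the gene, and capitals mark the HNF1 core site GTTAAT on either strand.
Umod, chr7:119479263-119479512, minus strand: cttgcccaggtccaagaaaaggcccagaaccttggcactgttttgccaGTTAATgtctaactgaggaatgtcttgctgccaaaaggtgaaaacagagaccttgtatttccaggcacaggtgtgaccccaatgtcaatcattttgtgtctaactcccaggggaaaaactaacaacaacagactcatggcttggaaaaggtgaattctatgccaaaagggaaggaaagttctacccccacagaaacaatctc
Cldn10 first start, chr14:118787621-118787870, plus strand: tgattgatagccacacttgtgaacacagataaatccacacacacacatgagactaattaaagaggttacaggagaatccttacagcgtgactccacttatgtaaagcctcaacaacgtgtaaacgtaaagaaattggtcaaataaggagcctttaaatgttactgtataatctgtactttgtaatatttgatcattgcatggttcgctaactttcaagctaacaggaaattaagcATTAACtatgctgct
Cldn10 second start, chr14:118854700-118854949, plus strand: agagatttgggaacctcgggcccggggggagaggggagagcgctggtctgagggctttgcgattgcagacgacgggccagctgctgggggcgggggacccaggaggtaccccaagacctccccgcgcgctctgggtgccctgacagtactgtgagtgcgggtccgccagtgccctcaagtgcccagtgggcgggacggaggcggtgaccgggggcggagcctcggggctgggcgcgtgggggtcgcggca
The core site lay 202 bases before the Umod start on the strand of the gene and 15 bases before the first Cldn10 start on the opposite strand. It was in 7.10% of 32851 RefSeq windows of 300 bases, and the windows of the other members held none. These 32851 windows, called all windows below, leave out those of a single chromosome, on which no member lies. The longer HNF1 site GTTAATNAT, which contains the core site, and the oestrogen-related receptor sites TCAAGGTCA and AAGGTCA, the second within the first, were searched on both strands and were in no member window, against 0.80%, 0.42% and 4.72% of all windows. All protein-coding transcripts of Cldn10 share their last exon, so that the counts do not say from which start the RNA came. Bsnd has no window in the table.

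Of the 8 genes, 6 were highest in the limb in both libraries, while Kcnj1 and Bsnd were highest in other classes. The secreted products came first in the limb and second in the distal convoluted tubule. Umod (GRCm38 chr7:119462711-119479282, minus strand) was read at 20176 and 18587 CPM in limb-like cells and at 4586 and 3234 CPM in distal convoluted tubule-like cells. In limb-like cells thinned to 2000 UMIs each, which left out 156 and 423 shallower cells, the median cell held 39 and 31 Umod UMIs, and the cells from the 5th to the 95th percentile held 11 to 73 and 7 to 70. Mural-like cells came next, at 1717 and 552 CPM, but 21.6% and 62.9% of their UMIs were estimated to be free RNA and their Umod was 1.35 and 0.90 times what that share predicts. In the 11 classes other than limb and distal convoluted tubule, Umod was at 1.35 times the prediction or less in PT I-PpoI and 2.37 times or less in wild type.

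Egf (chr3:129677565-129755316, minus strand) followed the same order, at 9679 and 7071 CPM in limb-like cells and 3292 and 1227 CPM in distal convoluted tubule-like cells. The median thinned limb-like cell held 18 and 12 Egf UMIs, with 2 to 41 and 1 to 34.8 from the 5th to the 95th percentile. Elsewhere Egf was at 1.57 times the free RNA prediction or less in PT I-PpoI and 1.67 times or less in wild type. In GENCODE M21 Umod overlaps the gene model Gm44588 on the other strand and Egf overlaps 4 gene models, 1 of them (Gm24515) on its own strand. Slc12a1, Cldn10 and Cldn19 each overlap 1 model on the other strand (Gm14002, n-R5s51 and Gm12927), and reads of such pairs cannot be told apart if counting did not use strand.

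Slc12a1 was, by share of UMIs, the member most restricted to the limb in both libraries. It was read at 7062 and 6332 CPM in limb-like cells (chr2:125152505-125230002, plus strand), and limb-like cells held 94.5% and 90.7% of its UMIs among kept cells. Its next class was mural-like, at 520 and 122 CPM, which is 1.48 and 0.84 times the free RNA prediction there. In distal convoluted tubule-like cells, whose salt transporter is Slc12a3, Slc12a1 was at 91.9 and 93.0 CPM, or 1.301% and 1.468% of its limb level. In the 12 classes other than the limb it was at 1.79 times the prediction or less in PT I-PpoI and 3.20 times or less in wild type.

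Kcnj1 had its highest level outside the limb. It was read at 866 and 655 CPM in distal convoluted tubule-like cells, 664 and 639 CPM in principal-like cells, 586 and 605 CPM in connecting tubule-like cells and 541 and 538 CPM in limb-like cells (chr9:32372493-32399197, plus strand). In PT I-PpoI the intervals of neighbours in this order did not overlap, and in wild type those of each neighbouring pair among the first 4 classes did. Intercalated-like cells were next, at 153 and 237 CPM, which is 5.58 and 32.1 times the free RNA prediction. These 5 classes were the ones above 4 times the prediction in both libraries, and the limb held 37.1% and 36.4% of Kcnj1 UMIs among kept cells.

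Bsnd was highest in intercalated-like cells, the acid-base cells of the collecting duct, at 199 and 187 CPM. Limb-like cells followed at 152 and 126 CPM (chr4:106483456-106492283, minus strand), apart from the first class by more than the intervals. Distal convoluted tubule-like cells were at 110 and 71.7 CPM and connecting tubule-like cells at 68.0 and 82.3 CPM, the order of those 2 classes differing between the libraries and their intervals overlapping in wild type. Principal-like cells held 40 and 21 Bsnd UMIs in all, at 4.53 and 12.5 CPM, which is 0.52 and 8.12 times the free RNA prediction.

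Each of the 3 claudins was highest in the limb in both libraries. Cldn10 (chr14:118787908-118875489, plus strand) was read at 875 and 872 CPM in limb-like cells and at 196 and 277 CPM in PT-like cells, where it stood at 7.30 and 14.1 times the free RNA prediction. Limb-like cells held 88.87% and 26.96% of the Cldn10 UMIs of kept cells, in libraries with 168 and 5941 PT-like cells. Cldn16 (chr16:26463135-26482765, plus strand) was read at 78.2 and 91.5 CPM in limb-like cells and at 4.53 CPM or less in the other 12 classes of PT I-PpoI. In wild type its next class was mural-like, at 11.6 CPM from 11 UMIs. Cldn19 (chr4:119255414-119262438, plus strand) was read at 233 and 214 CPM in limb-like cells and at 81.4 and 142 CPM in thin limb-like cells, from 150 and 109 UMIs, which is 15.7 and 48.3 times the prediction.

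**Figure D1:**
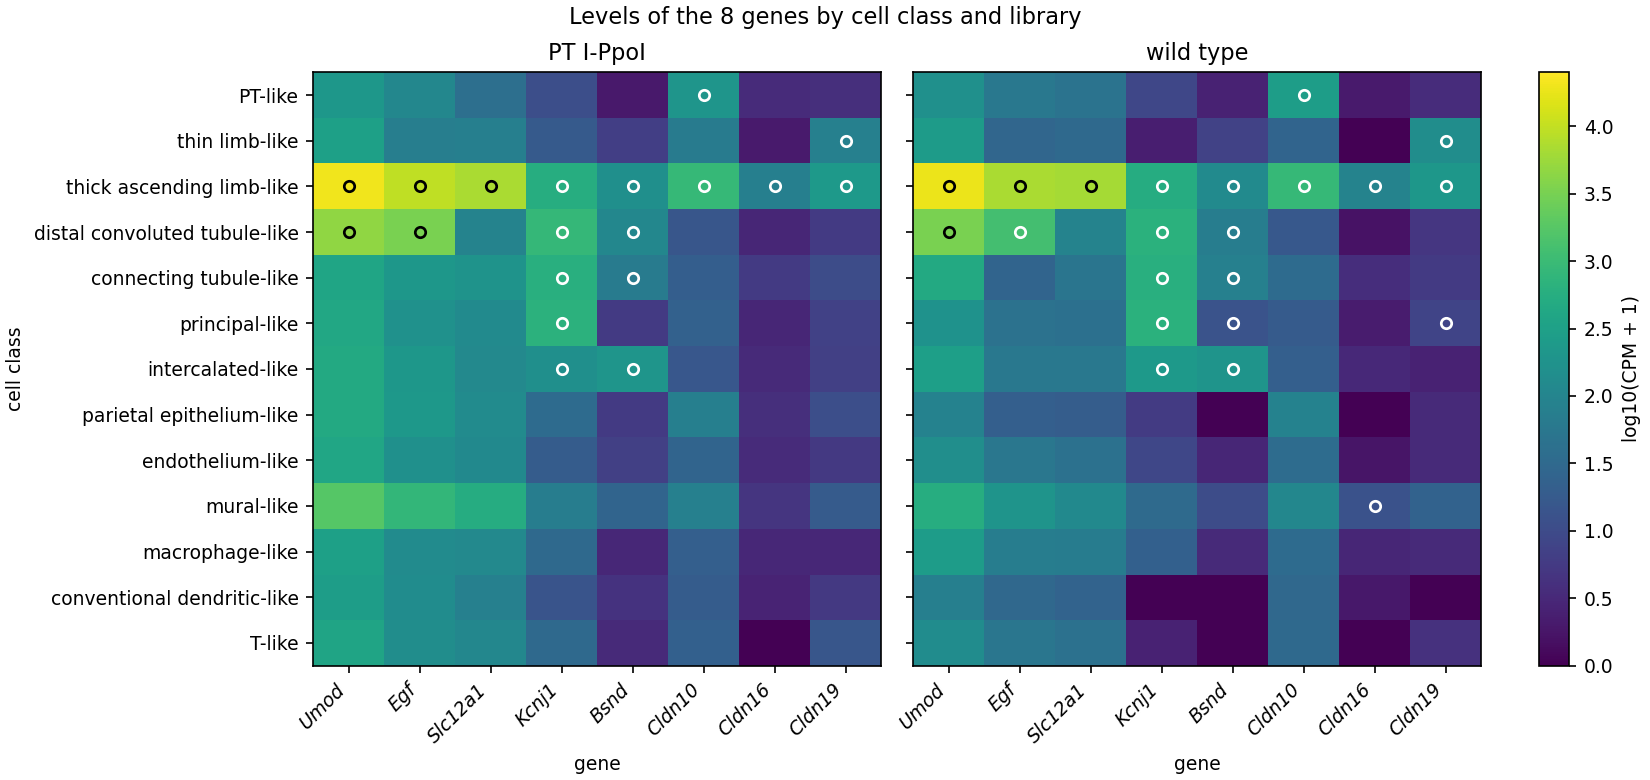
Levels of the 8 genes (columns) in 13 cell classes of 50 or more cells in each library (rows), as log10(CPM + 1), in PT I-PpoI (left) and wild type (right). Circles mark values above 4 times the free RNA prediction that rest on 10 or more UMIs: Slc12a1 is circled in the limb row alone, Umod and Egf also in the distal convoluted tubule row, Kcnj1 in 5 rows and Bsnd in 4 of the same rows of both libraries, Cldn10 also in the PT row and Cldn19 also in the thin limb row. The wild-type circles of Bsnd and Cldn19 in principal-like cells and of Cldn16 in mural-like cells rest on 21, 12 and 11 UMIs.

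UMIs of the members were also read in cells of classes that should lack them, so shares of cells with a UMI are given beside such classes. After thinning to 2000 UMIs, Umod was read in 99.1% and 99.4% of limb-like cells, and in 43.3% and 14.3% of macrophage-like cells and 42.2% and 17.6% of endothelium-like cells, which should lack it. Before thinning, 74.2% and 21.4% of macrophage-like cells, of 4950 and 2705 median UMIs, held a Umod UMI. In barcodes of 100 or fewer UMIs, Umod took 53.8% and 56.2% of the UMIs of the 8 genes, against 51.4% and 51.6% in the whole libraries. Cldn10 took 4.31% and 8.24% in those barcodes, and 34.5% and 50.2% in PT-like cells.

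The distal convoluted tubule-like cells, 576 and 308 in number, shared the limb's products but not its cotransporter or claudins. Umod there was 22.7% and 17.4% of its limb level, Egf 34.0% and 17.4%, Bsnd 72.1% and 56.8% and Kcnj1 160% and 122%, while Slc12a1, Cldn10, Cldn16 and Cldn19 were each at 2.49% or less. Umod stood at 17.7 and 26.0 times the free RNA prediction and Egf at 31.2 and 32.7 times, against 1.28 and 3.20 times for Slc12a1. After thinning, 85.1% and 76.6% of these cells held a Umod UMI and 94.2% and 71.7% an Egf UMI. Slc12a1 was read in 8.07% and 4.89% of them, close to its 10.1% and 5.33% in macrophage-like cells.

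These cells were also read by whether they held any Slc12a1. Among the 444 and 175 thinned cells with no Slc12a1 UMI, Umod stood at 4459 and 3117 CPM and Egf at 3208 and 1154 CPM. The 39 and 9 cells with a Slc12a1 UMI were at 4846 and 4444 CPM of Umod and at 3500 and 2111 CPM of Egf. In wild type the Egf intervals of the cells with and without Slc12a1 were apart (1494 to 2898 against 1044 to 1273 CPM). The wild-type Umod intervals were apart as well (3524 to 5532 against 2935 to 3308 CPM). Slc12a3, the thiazide-sensitive cotransporter that defines the segment, was at 6750 and 6583 CPM in the cells without Slc12a1. Umod was uneven among the cells of the class, with 5th and 95th percentiles of 0 and 31 UMIs per thinned cell in PT I-PpoI and 0 and 25 in wild type.

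**Figure D2:**
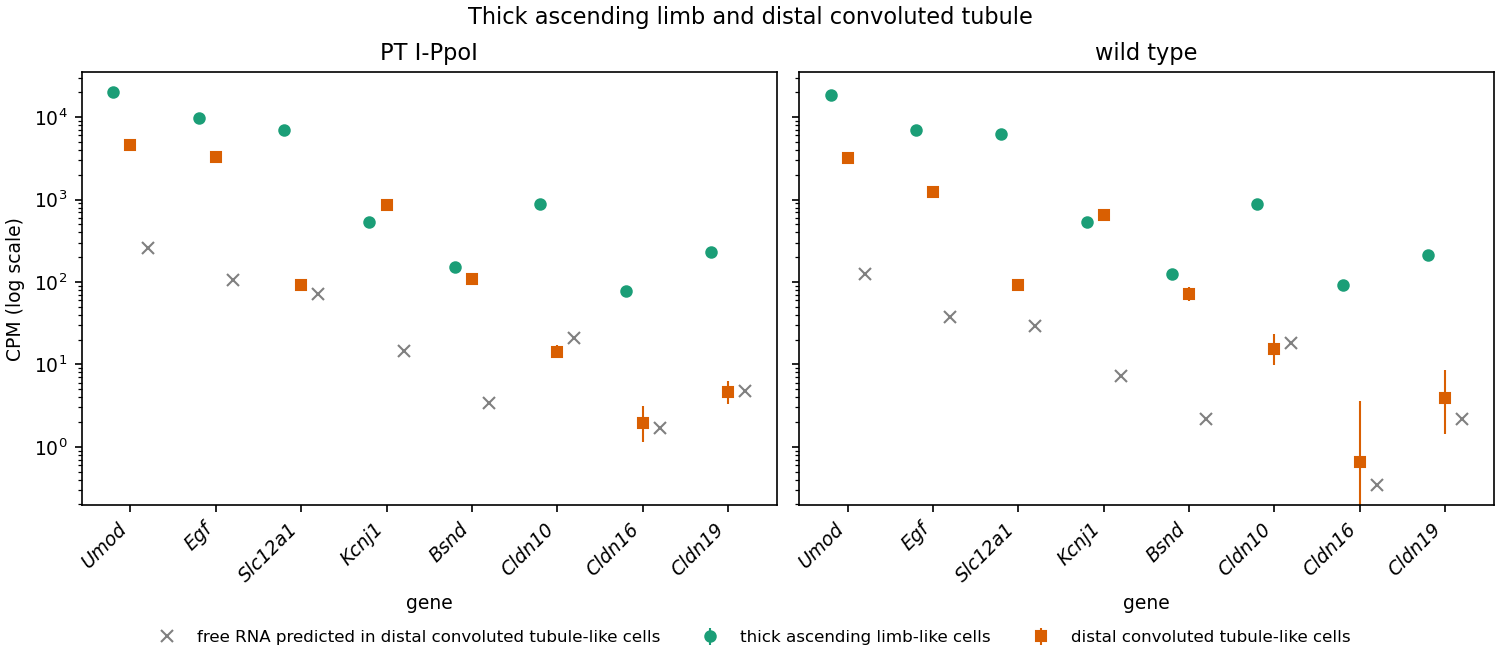
CPM on a log scale of each gene in thick ascending limb-like cells (circles) and distal convoluted tubule-like cells (squares), with exact Poisson 95% intervals, and the level that free RNA predicts in the latter (crosses), in PT I-PpoI (left) and wild type (right). Squares of Umod, Egf, Kcnj1 and Bsnd lie well above their crosses, whereas those of Slc12a1, Cldn10, Cldn16 and Cldn19 are at 3.20 times their crosses or less.

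Summed over whole libraries, the members were higher in PT I-PpoI by 1.57-fold (Cldn10) to 6.97-fold (Egf). Umod stood at 5853 and 1119 CPM of all UMIs, a 5.23-fold difference. From such sums alone, more limb cells and more RNA per cell cannot be told apart, and the same genes are given next within limb-like cells.

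Within the limb, levels in the libraries were close. Slc12a1 had a ratio of 0.16 (0.14 to 0.18), and Umod of 0.12 (0.11 to 0.13), or 1.09-fold. Kcnj1 was at 0.01 (-0.06 to 0.07) and Cldn10 at 0.01 (-0.05 to 0.06). Over the whole class, none of the 8 members passed 2-fold in either direction. Of the 12914 genes with 10 or more UMIs in the class, 3.61% were higher in PT I-PpoI by 2-fold or more and 5.07% lower. All 8 members were above 50 CPM. Of the 2461 genes of 50 CPM or more in 1 library, 9 were higher and 22 lower by that size. That no member passed 2-fold is thus usual for genes of such levels. The member median was 0.12, beside 0.09 over the 12914 genes and 0.04 over the 2461.

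Egf had the largest ratio of the 8, at 0.45 (0.44 to 0.47), or 1.37-fold. It was above 0 in clusters 1, 2 and 3 (0.36, 0.45 and 0.71) and under each of 12 alternative settings, from 0.31 to 0.87. Among the 2461 genes of 50 CPM or more in the class, 5% of ratios were above 0.39. Bsnd was at 0.27 (0.14 to 0.41) and Cldn19 at 0.13 (0.02 to 0.23), and both, with Slc12a1, were also above 0 under all 12 settings. Cldn16 was the 1 member below 0, at -0.23 (-0.39 to -0.06), but 2 of the settings put it above 0, up to 0.09. For Umod, Kcnj1 and Cldn10 the sign changed with the setting, at 2, 5 and 8 of the 12 below 0.

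The small ratios moved with the setting. Without cluster 3 the median of the 8 ratios was 0.03, and with each cell given equal weight it was 0.41. Umod was at 0.02 in cluster 1, -0.01 in cluster 2 and 0.25 in cluster 3. Summed PT markers in these clusters were at 40.0 and 1180 CPM, 22.1 and 1076 CPM, and 2902 and 5089 CPM, and their part in the ratios was not tested.

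**Figure D3:**
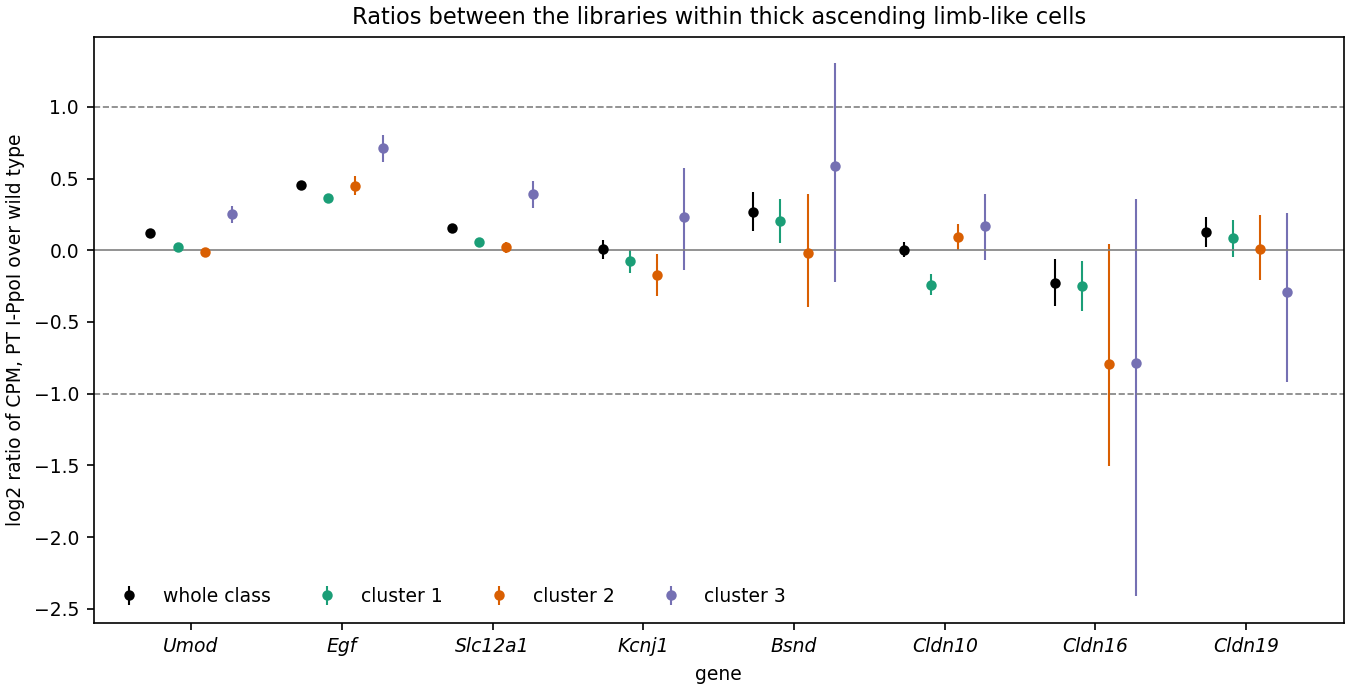
Log2 ratios of CPM, PT I-PpoI over wild type, with exact conditional binomial 95% intervals, for the whole limb-like class and its clusters 1, 2 and 3; dashed lines mark 2-fold. No point of the whole class passes 2-fold, Egf lies above 0 in all 3 clusters and Cldn16 below 0 in all 3, the latter with intervals that reach above 0 in clusters 2 and 3.

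In the distal convoluted tubule the Egf difference was larger. Egf stood at 3292 and 1227 CPM there, a ratio of 1.42 (1.36 to 1.49), and the thinned median cell held 6 and 2 Egf UMIs. Umod was at 0.50 (0.46 to 0.55), Bsnd at 0.61 (0.33 to 0.91) and Kcnj1 at 0.40 (0.31 to 0.50), and Slc12a1 at -0.02 (-0.27 to 0.25). Members past 2-fold upward were 2 of 8, Egf and Cldn16, the latter on 17 and 1 UMIs with an interval from -1.08 to 6.98, and none passed downward; of 11343 genes 3.32% were higher by 2-fold or more and 7.91% lower. The class is made of cluster 13, where the Egf ratio was 1.35 (538 and 253 cells), and cluster 27, where it was 0.91 and so under 2-fold (38 and 55 cells). It was 1.39 in cells of 2000 or more UMIs and 1.29 after free RNA was subtracted. Median depth was 15494 and 3152 UMIs and summed PT markers 57.3 and 2289 CPM in these cells; beyond those 2 settings, their part in the difference was not tested.

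Inside the limb, Cldn10 and Cldn16 were highest in different groups of cells, though many cells held both. Limb-like cells were clustered once more without the 8 genes and gave parts 0 to 9. In this paragraph and the next, levels are over both libraries together unless a library is named. Cldn16 was highest in parts 1 and 3, at 180 and 140 CPM over both libraries, where Cldn10 was lowest of all parts, at 281 and 184 CPM. Parts 4 and 7 were the reverse, with Cldn10 at 1493 and 1815 CPM and Cldn16 at 24.1 and 14.8 CPM. Cldn16 in part 4 was at 18.5 CPM in PT I-PpoI and 43.6 CPM in wild type. In part 7 it was at 11.9 CPM in PT I-PpoI and 47.6 CPM in wild type. Parts 0 and 6 held both RNAs, with Cldn10 at 1105 and 851 CPM and Cldn16 at 54.7 and 91.3 CPM. Foxq1 and Tmem52b were among the 10 leading genes of parts 1 and 3, and Sycn, Scel and Htr1b among those of parts 4 and 7.

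The other members split along the same line to different degrees. Their values are given for parts 1 and 3 and then for parts 4 and 7. Egf was at 13703 and 13349 CPM in parts 1 and 3 and at 3440 and 3611 CPM in parts 4 and 7. Bsnd went the same way, at 198 and 189 CPM against 83.6 and 83.2 CPM. Umod was at 20880 and 24130 CPM against 14891 and 16351 CPM. Slc12a1 went the other way by a smaller step, at 6527 and 6460 CPM against 7862 and 7901 CPM, and Kcnj1 (585 and 547 against 503 and 515 CPM) and Cldn19 (253 and 234 against 252 and 253 CPM) hardly separated the parts. Cldn19, the partner of claudin-16 in its pore, thus stood at like levels where Cldn16 was high and where it was low.

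Part 5 held 30 and 9 cells and all 6 macula densa markers among its 10 leading genes (Nos1, Pappa2, Bmp3, Robo2, Avpr1a and Ptgs2). The macula densa is the group of limb cells that senses salt beside the glomerulus. Slc12a1 was at 5892 and 6731 CPM in it and Kcnj1 at 530 and 496 CPM. Umod was at 3487 and 7023 CPM, below each part of 20 or more cells in both libraries, the lowest of which were at 14715 and 12247 CPM. Egf (1776 and 4229 CPM) and Cldn19 (80.3 and 175 CPM) were below the other 7 parts in PT I-PpoI, but in the 9 wild-type cells each was above 2 of 8 parts. Part 6 had endothelial genes among its leading genes, and parts 8 and 9 (33 and 470 cells, 463 of the latter wild type) had PT genes.

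**Figure D4:**
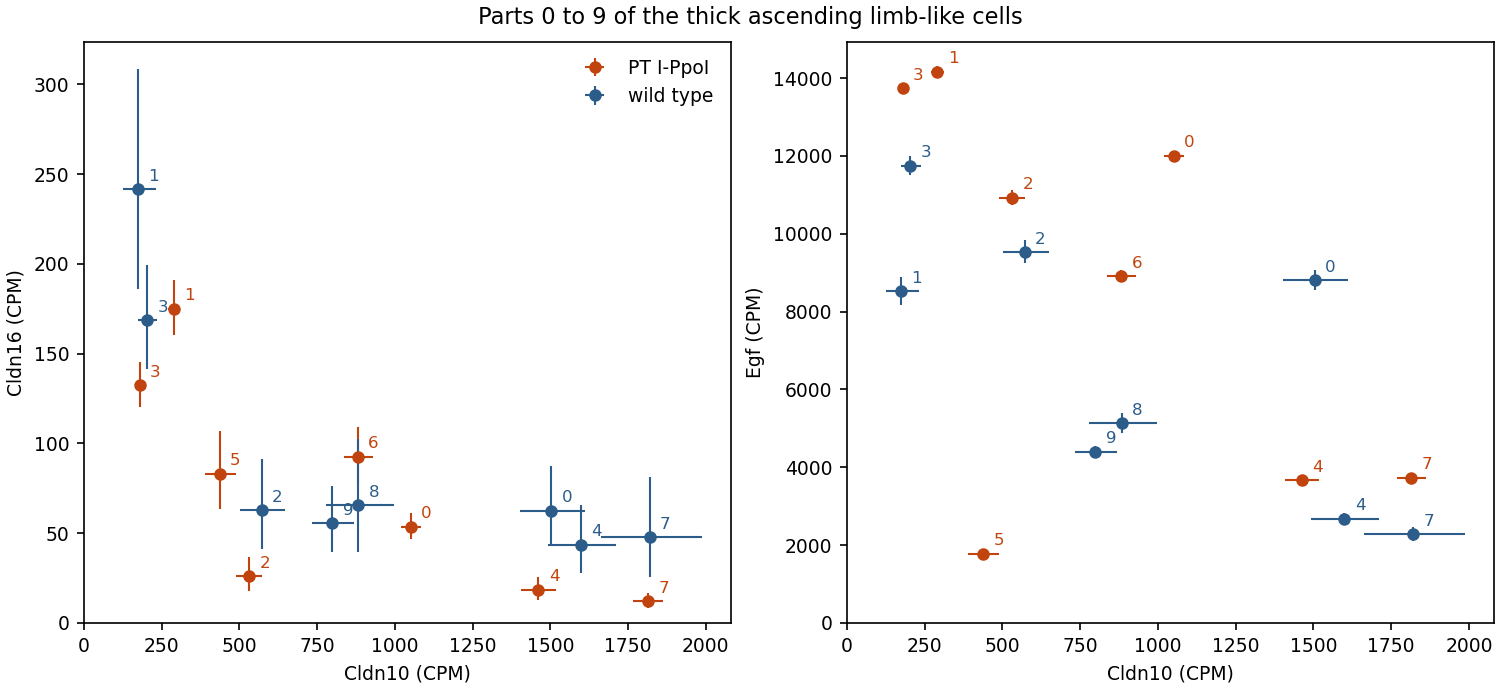
Cldn16 (left) and Egf (right) against Cldn10, all in CPM with exact Poisson 95% intervals, in the parts of the limb-like cells that held 20 or more cells of a library; numbers name the parts. In both libraries parts 1 and 3 lie at high Cldn16 and low Cldn10, parts 4 and 7 at the reverse and at low Egf, and part 5, drawn for PT I-PpoI alone, at low Egf with intermediate Cldn10.

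Between libraries, Egf was higher in PT I-PpoI in each of the 6 parts with 20 or more cells of both, by 0.20 (part 2) to 0.73 (part 1). Cldn16 had a ratio below 0 in each, from -0.24 (-0.75 to 0.35) in part 0 to -2.03 (-2.94 to -0.96) in part 7, the latter on 37 and 13 UMIs. Only the part 0 interval included 0. Cldn16 was also past 2-fold in part 2 (-1.28, -2.07 to -0.48, on 31 and 27 UMIs) and part 4 (-1.25, -2.04 to -0.41, on 34 and 23 UMIs). The share of all genes past 2-fold was not counted by part. Cldn10, near 0 for the whole class, ran from -0.52 (-0.63 to -0.41) in part 0 to 0.73 (0.31 to 1.20) in part 1. Umod had no common direction, from -0.18 in part 3 to 0.25 in part 1. With parts 0 to 4 and 7 alone, the median of the 8 ratios was -0.0078.

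Single cells at equal depth gave a partial split in the same direction. Of 1272 PT I-PpoI limb-like cells thinned to 2000 UMIs, 756 held Cldn10 alone, 87 Cldn16 alone, 65 both and 364 neither. In wild type 293 of 526 held Cldn10 alone, 52 Cldn16 alone, 27 both and 154 neither. Cldn10 was read in 42.8% (34.8 to 51.0) of PT I-PpoI cells with Cldn16 and in 67.5% (64.7 to 70.2) of cells without it. The wild-type shares were 34.2% (23.9 to 45.7) and 65.5% (60.9 to 69.9). At 5000 UMIs per cell all 4 shares were higher, at 58.2% against 84.5% and 46.6% against 79.4%. Unthinned they were 75.9% against 83.8% and 56.0% against 61.2%. The unthinned wild-type intervals overlapped (49.0 to 62.9 against 57.6 to 64.7). A cell without a UMI is not shown to lack the RNA. For comparison, 5.46% and 6.50% of thinned endothelium-like cells, of 4228 and 2064 median UMIs before thinning, held a Cldn10 UMI.

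**Figure D5:**
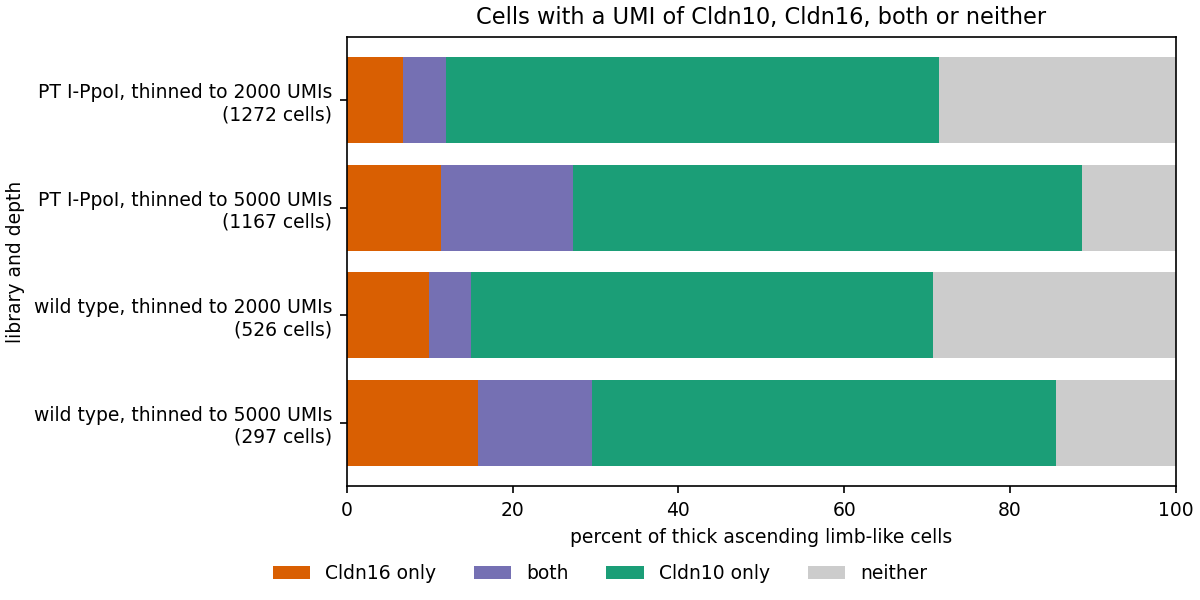
Percent of limb-like cells in each library with a UMI of Cldn16 alone, both, Cldn10 alone or neither, after thinning to 2000 or 5000 UMIs per cell. At both depths cells with Cldn10 alone are the largest group in each library, and cells with both grow from about 5.11% and 5.13% to 15.9% and 13.8% with depth.

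Other genes were compared between these cells. A gene was kept only with ratios of the same sign in both libraries, so that shared sign was a rule and not a result. It also needed 20 or more thinned UMIs in each library, but only in the cell group where it was higher. Among the 991 genes kept, Tmem52b and Foxq1, a transcription factor, were most raised in cells with Cldn16 alone. Tmem52b was at 1328 against 155 CPM in PT I-PpoI and 990 against 95.6 CPM in wild type. Foxq1 was at 247 against 31.7 and 212 against 25.6 CPM. Wnk1, a kinase that controls salt transport, and Pth1r, the parathyroid hormone receptor, were also among the 8 highest, with Zfp503, Ier3, Ggt1 and Hagh. In cells with Cldn10 alone the 8 highest were Ptgds, Pla2g7, Ptger3, Ugt8a, Lrp6, Robo3, Plod2 and Ranbp3l. Of these, Ptgds, Ugt8a, Robo3 and Plod2 rest on 0 or 1 UMI in cells with Cldn16 alone in each library. Pla2g7 rests there on 2 and 0 UMIs, Ranbp3l on 6 and 1 and Lrp6 on 7 and 3. The wild-type intervals of Ugt8a, Robo3 and Plod2 include 0, as does that of Plod2 in PT I-PpoI. Ptger3, a prostaglandin E2 receptor, was at 481 against 74.7 CPM and 413 against 48.1 CPM. Egf followed the parts, at 12149 CPM with Cldn16 alone and 8253 CPM with Cldn10 alone in PT I-PpoI, and 9385 and 5814 CPM in wild type. Umod and Slc12a1 also kept the direction of the parts in both libraries. Bsnd was at 161 against 149 CPM in PT I-PpoI, but at 76.9 (8 UMIs) against 128 CPM in wild type. Kcnj1 went against the parts, at 460 against 563 CPM and 375 against 538 CPM. The intervals of Bsnd and of Kcnj1 overlapped in both libraries.

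Fixed lists around the members were read in the same limb-like cells, where 3.61% of all genes were higher by 2-fold or more and 5.07% lower. Among 16 measured salt transport partners 1 was higher by 2-fold or more, the potassium channel Kcnma1 (1.04, on 49 and 5 UMIs). Its interval, -0.16 to 2.84, includes 0. Another 2 were lower: Slc4a4 (16.2 and 78.6 CPM, -2.28) and Cldn14, a claudin that blocks the claudin-16 pore (25 and 31 UMIs, -2.44). Slc4a4, a bicarbonate cotransporter, was among the leading genes of a PT-like cluster. Summed PT markers in limb-like cells stood at 68.7 and 1904 CPM, and their part in the Slc4a4 ratio was not tested. None of 16 regulators of salt transport, 20 genes of uromodulin folding, cleavage and secretion, 9 EGF family genes or 20 limb transcription factors passed 2-fold; at those shares of all genes, few or none would be counted in lists of this size. Hpn, the protease that releases uromodulin, was at 111 and 107 CPM, and Hspa5, a chaperone of the endoplasmic reticulum, at 297 and 374 CPM. Of 11 receptors Npr1 was higher (37 and 2 UMIs) and Agtr1a (6 and 7 UMIs) and Ednrb (19 and 10 UMIs) lower. The Ednrb interval, -2.38 to 0.06, includes 0. Of 6 macula densa markers Pappa2 was higher (18.6 and 8.92 CPM, 1.05). List medians ran from -0.04 (folding and secretion) to 0.27 (macula densa), beside 0.09 over all genes.

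Over 26 sums, the 13 classes in each of the libraries, each member was compared with 6788 genes by Pearson's r of log2(CPM + 1). These sums share library, depth and free RNA, so r is a description. Wfdc15b, Ppp1r1a, Tmem207, Irx1 and Irx2 were limb markers, and Tmem52b a distal convoluted tubule marker, when the classes were named. Their r over these classes is thus not independent of the naming. Umod was most like Wfdc15b (0.95), Egf (0.95) and Ppp1r1a (0.92). Egf was most like Umod, Wfdc15b (0.94) and Dusp15 (0.92). Slc12a1 was nearest to Tmem207 (0.90), Cldn16 (0.89) and Umod (0.87), and Cldn16 to Slc12a1, Dusp9 (0.86) and Adcy1 (0.84). Kcnj1 was nearest to Kcnj10 (0.95), a basolateral potassium channel of the distal nephron, Atp4a (0.94) and Tmem52b (0.93). Bsnd was nearest to Gcgr (0.93), the glucagon receptor, Slc45a4 (0.93) and Acacb (0.92). Cldn10 had the weakest first match of the 8, Slc9a3 (0.80), the sodium-proton exchanger of PT and limb, before Itgb8 (0.79) and Kcnq1ot1 (0.79). Cldn19 was nearest to the transcription factors Sim2 (0.88), Irx1 (0.88) and Irx2 (0.83).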

How the data were processed

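Raw UMI counts were used as deposited by the authors, 1 unfiltered matrix per library made with 10x 3' v3.1 chemistry per the labels' protocols. Counting against mm10 used Cell Ranger 3.1, with Seurat 3 for later steps, per the submitters' processing notes, although the matrix headers name Cell Ranger 4. Whether counting used strand is not given in the sources used here. Barcodes were called as cells by depth or by a multinomial test of 500 or more UMIs against free RNA. Those under 200 genes or over 50% mitochondrial UMIs, and Scrublet doublets (81 and 281), were removed. Cells were clustered together (scanpy 1.11.5, Leiden, resolution 1) without the members, and clusters were named when 3 or more markers were detected, hence "-like". Class sums were scaled to CPM, with Poisson, conditional binomial or Clopper-Pearson 95% intervals. Ratios took a prior of 0.5 count. Free RNA in a class was scaled from barcodes of 100 or fewer UMIs by genes foreign to that class. On simulated counts only the ratio, its interval and the thinning step were checked. Of 31053 gene IDs, 31011 were in GENCODE M21, and promoters are from RefSeq. TMM factors came from edgeR 4.0.16, with no edgeR test run. Named genes were the members, listed genes past 2-fold, the 3 closest genes by r, and the 8 genes each way that separated Cldn16 and Cldn10 cells alike in both libraries. Hpn, Hspa5, Slc12a3, Egfr, Erbb4, Btc and the leading genes of limb parts (Sycn, Scel and Htr1b) were named outside this rule, after their values were seen. The members and lists were chosen with earlier results of these data known. Values of a few listed genes are not reported here.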

Additional observations from a re-analysis of the deposited data

How the results depend on the processing

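No paired analysis was possible because each group had 1 library. Summed over the limb-like cells of a setting, none of the 8 members passed 2-fold under any of the 12 settings. Within single parts Cldn16 did, in parts 2, 4 and 7. The median of their ratios, 0.12, was 0.062 in cells of 2000 or more UMIs, 0.019 after subtraction of free RNA, 0.060 with TMM factors (a shift of -0.06 to every ratio) and 0.41 as a mean over cells. Chosen after seeing the data, it was 0.030 without cluster 3 and -0.0078 in parts 0 to 4 and 7. Under the other 6 settings the median stayed between 0.065 and 0.153. Those limits are the medians of the members' separate lower and upper bounds, not an interval of the median itself. For these moves the cause was not tested. Umod in the limb was 21971 CPM (PT I-PpoI) and 19427 CPM (wild type) at a 30% mitochondrial limit, and 19897 CPM in PT I-PpoI after subtraction. The Egf ratio in the distal convoluted tubule, with all settings chosen after seeing the data, was 1.29 after subtraction, 1.49 with TMM factors, 1.35 in cluster 13 and 0.91 in cluster 27. The share of Cldn16 cells with Cldn10 was 58.2% and 46.6% at 5000 UMIs and 75.9% and 56.0% unthinned. Cldn16, Bsnd and Cldn19 rest on 390 to 911 wild-type UMIs in the limb.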

Other observations

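The receptor of EGF was read at higher levels in some other classes than in the limb. Egfr was at 52.3 and 73.7 CPM in principal-like cells, 51.0 and 59.9 CPM in thin limb-like cells and 46.5 and 27.4 CPM in PT-like cells, against 11.7 and 9.85 CPM in limb-like cells. Erbb4, a receptor of neuregulins and other family ligands, was instead highest in limb-like cells, at 165 and 124 CPM, with 18.2 and 11.6 CPM in distal convoluted tubule-like cells. Btc, another ligand of Egfr, was at 422 and 616 CPM in principal-like cells and at 7.22 and 6.33 CPM in limb-like cells.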
